A study of Drosophila melanogaster with 12 samples.

Results

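The genes described here encode the factors that start, extend and end protein synthesis on cytosolic ribosomes. They were chosen by name, as the probe sets whose only gene symbol in the array's annotation begins with eIF, eEF or eRF. This gave 51 probe sets for 47 genes, out of 18952 probe sets and 11982 genes with a probe set of a single symbol. For a gene with several probe sets, the one with the highest mean signal stands for it. RefSeq lists 54 genes with such names. The 7 without a probe set of a single symbol (eIF1A, eIF2alpha, eIF2gamma, eIF4H1, eEF1alpha1, eEF1beta and eEF2) were not analysed here.

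Expression was measured on 12 Affymetrix arrays, each with RNA from 30 pairs of eye-antennal discs of wandering larvae of the last instar. The driver line ey-Gal4, which makes the yeast activator Gal4 under control of eyeless in the eye part of the disc, and the responder line UAS-wge each gave 3 arrays and served as controls. In ey>wge (3 arrays) both elements are combined, so that winged eye, a chromatin-associated protein, is overexpressed, a condition that per the series title causes transdetermination of the disc. The last group (3 arrays) has ey-Gal4, UAS-wge and the alleles Su(var)3-9[1]/[2] of a histone H3 lysine methyltransferase gene, and is called the allele pair below. No group carried the alleles without ey>wge, so effects of the alleles and of the genetic background of their stock cannot be told apart, and whole discs were used, so cells outside the driver's domain contribute RNA. Replicates are biological per the labels, and no batch is recorded.

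Translation begins when eIF2 brings the initiator tRNA to the small ribosomal subunit, helped by eIF1, eIF3 and eIF5, while eIF2B reloads eIF2 with GTP. The cap-binding protein eIF4E, the scaffold eIF4G and the helicase eIF4A recruit the mRNA, and eIF5B joins the large subunit. The eEF1 complex then delivers aminoacyl-tRNAs, and eRF1 with eRF3 releases the finished chain. Most of these genes are active in every growing cell, but Drosophila has several extra eIF4E and eIF4G genes, among which eIF4E3 and eIF4G2 are known for their work in the male germ line. Growing imaginal discs depend on a large translation capacity, and control of eIF4E by its binding partners is a known step of growth regulation.

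Values are MAS5 signals on a linear scale, and changes are on the scale log2(signal + 16) with the standard error (SE) of a limma fit to all 12 arrays. Calls were made at a p under 0.05 after Benjamini-Hochberg adjustment across the 13817 probe sets tested, which had to lie above the 40th percentile of their array (a signal of 21.2 to 28.6) on at least 3 arrays. Background below means this percentile. Signals of different probe sets do not rank genes by abundance. In bulk discs, fewer cells of a type and less RNA per cell cannot be told apart. Array medians were 38.7 to 43.7 in the first 3 genotypes and 33 to 44.4 with the allele pair, whose median SD within the group was 0.36 on the log2 scale against 0.23 to 0.25 in the others. Its replicates 2 and 3 stood apart, with signals that fell with gene span (the distance from a gene's start to its end). Defining genes of the eye were present in the controls, with 14 of 14 eye and photoreceptor genes above background on all ey-Gal4 arrays and 13 of 14 on all UAS-wge arrays.

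Of the 47 genes, 38 lay above background on all 12 arrays, 6 on only some of them and were tested, and 3 (eIF4E4, eIF4E5 and eIF4E7) were not tested. The 38 were steady between control discs. Their median SD over the 6 control arrays was 0.13 on the log2 scale, against 0.21 for the 7958 probe sets above background on all arrays. These sets were not matched for signal level, and most of the 38 have high signals. The lowest SDs belonged to eIF3c (0.048), the helicase gene eIF4A (0.070), eIF3b (0.075), eIF4G2 (0.078) and eEF5 (0.078), whose product eases difficult peptide bonds. The highest were those of eEF1gamma (0.38), eIF2Balpha (0.33) and eEFSec (0.30), a factor for selenocysteine. The 47 genes lie on all major chromosome arms, with 13 on 3R, 12 on 3L, 11 on 2R, 5 each on 2L and X, and 1, eIF4G1, on chromosome 4.

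Discs expressing winged eye were set against the average of both controls to find the factors that respond to it. Calls were made for 3 of the 44 genes tested, with eIF4E1 and eIF4E3 higher and eEF1alpha2 lower. With 3 arrays a group, a missing call does not show that a gene was unchanged. Over all probe sets 2.97% were called, 0.897% higher and 2.07% lower. Among the 38 genes above background on all arrays, 33 moved by less than 0.25 on the log2 scale. The median change of the 44 was 0.07, against 0.01 over all probe sets tested. limma gave 7 of the 44 and 1635 of the 13817 an unadjusted p under 0.05. The 3 members called became 1 without ey-Gal4 replicate 2, UAS-wge replicate 2, ey>wge replicate 2 or ey>wge replicate 3. In these fits 334, 323, 281 and 250 of all probe sets were called, against 410.

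The elongation factor gene eEF1alpha2 had the largest fall. Its product is a GTPase that carries aminoacyl-tRNA to the ribosome, made from 1 of a pair of very similar eEF1alpha genes, and the other, eEF1alpha1, has no probe set of its own here. The signals were 1807, 2613 and 2515 in ey-Gal4, and 1887, 1601 and 1671 in UAS-wge. They were 763, 767 and 501 in ey>wge, and 239, 309.9 and 147 with the allele pair. Every ey>wge array lay below all 6 control arrays, and every allele-pair array below all ey>wge arrays. On mean signals, ey>wge was 3.41-fold lower than ey-Gal4 and 2.54-fold lower than UAS-wge. The change was -1.55 ± 0.20 against the average of the controls (limma adjusted p = 7.65e-05), -1.76 ± 0.23 against ey-Gal4 (adjusted p = 0.000118) and -1.35 ± 0.23 against UAS-wge (adjusted p = 0.00123). With the allele pair it fell by a further 1.51 ± 0.23 (adjusted p = 0.000752). All 4 calls were kept under each alternative tried.

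Markers of the retina, of muscle and of hemocytes moved with eEF1alpha2 in part of these comparisons. In ey>wge against the control average 14 of 14 eye and photoreceptor genes fell, with a median of -1.56 (14 of 14 against ey-Gal4 alone and 12 of 14 against UAS-wge alone), and their summed signal went from 26892 to 32756 on the control arrays to between 9538 and 10750 in ey>wge. With the allele pair 3 of these 14 fell further, with a median of -0.27 and summed signals of 6810 to 9439. Muscle genes showed 1 of 8 higher and none lower in ey>wge against the control average, while 6 of 8 fell with the allele pair, with a median of -1.42. Summed muscle signals were 5634 to 15124 in ey-Gal4, 3163 to 4955 in UAS-wge, 6422 to 8239 in ey>wge and 1809.5 to 3896 with the allele pair, and all 8 genes stayed above background on every array. Hemocyte genes showed 8 of 13 lower in ey>wge against the average of the controls, but 2 of 13 against ey-Gal4 alone and 9 of 13 against UAS-wge alone. With the allele pair 2 of 13 were lower. Their summed signals were 24689 to 36297 in UAS-wge and 6349 to 12069 in the other genotypes. The part of these tissues in the fall of eEF1alpha2 was not tested.

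The other members of the elongation group did not pass against the control average. Genes of the exchange complex that reloads eEF1alpha changed by 0.25 ± 0.11 (eEF1gamma) and 0.18 ± 0.11 (eEF1delta), eEF5 by 0.08 ± 0.09 and eEFSec by -0.01 ± 0.25. The release factor genes eRF1, which reads stop codons, and eRF3, its GTPase partner, changed by 0.21 ± 0.11 and 0.13 ± 0.11 and did not pass either.

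**Figure D1:**
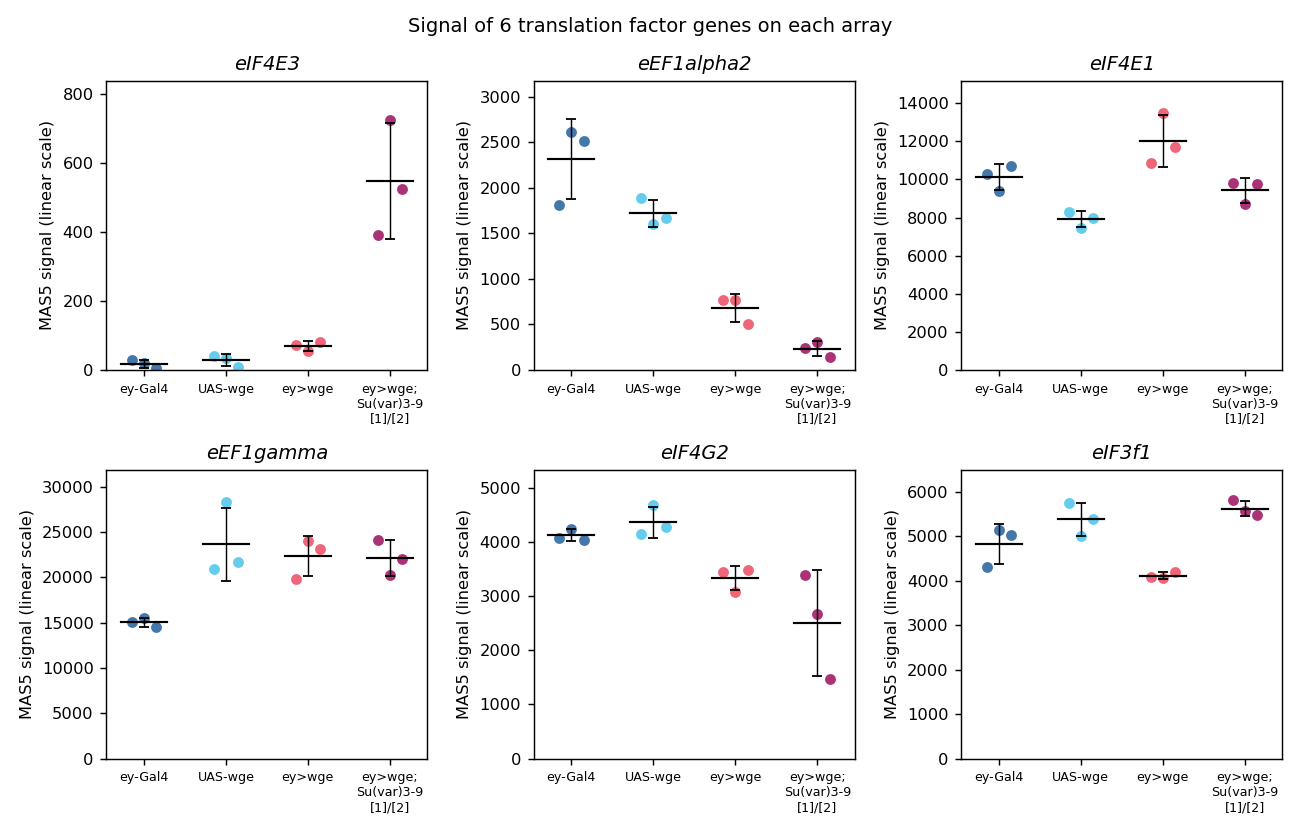
MAS5 signal (vertical axis, linear scale from 0) of 6 genes in 4 genotypes (horizontal axis). Each point is an array, the long bar the mean and the error bar the SD of 3 arrays. eIF4E3 lies between 390 and 725 with the allele pair and at or below 82 elsewhere, and eEF1alpha2 falls from controls to ey>wge and again with the allele pair.

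The eIF4E family of cap-binding proteins held both of the genes called higher in ey>wge against the control average. Neither was called against both ey-Gal4 and UAS-wge. eIF4E1, the general cap-binding factor of initiation, gave 10292, 9377 and 10692 in ey-Gal4 and 8316, 7454 and 7996 in UAS-wge. It gave 10845, 13487 and 11698 in ey>wge, and 9819.9, 8686 and 9769 with the allele pair. All ey>wge arrays were above all others, and UAS-wge was the lowest group. The change was 0.42 ± 0.10 against the average of the controls (limma adjusted p = 0.0189) and 0.59 ± 0.11 against UAS-wge (adjusted p = 0.00305), the latter kept under each alternative. Against ey-Gal4 it was 0.24 ± 0.11 and did not pass (adjusted p = 0.352). The call against the average was lost with array medians centred (adjusted p = 0.0589) and without ey-Gal4 replicate 2, UAS-wge replicate 2, ey>wge replicate 2 or ey>wge replicate 3, where the adjusted p was 0.0532, 0.0584, 0.197 and 0.0837. The allele pair lay -0.35 ± 0.11 from ey>wge, which did not pass (adjusted p = 0.0707).

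eIF4E3, the family member known from the male germ line, was at background in the controls and above it in both groups with driven winged eye. The signals were 27.7, 19.2 and 4.6 in ey-Gal4 and 40.7, 34.9 and 9.3 in UAS-wge, above background on 1 and 2 of 3 arrays. In ey>wge they were 73.7, 54.3 and 81.7, and with the allele pair 390.3, 724.7 and 523.7. No array of either group overlapped the group below it. Against the level of background, ey>wge was at least 2.56-fold higher than ey-Gal4 and at least 2.10-fold higher than UAS-wge, where an array below its 40th percentile was set to that percentile. The change was 1.23 ± 0.32 against the average of the controls (limma adjusted p = 0.0450), 1.43 ± 0.37 against ey-Gal4 (adjusted p = 0.0385) and 1.03 ± 0.37 against UAS-wge, which did not pass (adjusted p = 0.191). This gene lay above background on 9 arrays, 6 of them in the groups where it is high. Its control arrays above background just met the filter of 3 arrays by themselves.

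The call of eIF4E3 in ey>wge is a narrow one. Against the average of the controls it was lost under 12 of 22 alternatives, and the adjusted p ranged from 0.0302 to 0.237 over all 22. The 12 were a pseudocount of 1 or 64, no filter, a fit of the 9 arrays alone, and leaving out any of ey-Gal4 replicates 2 and 3, UAS-wge replicates 2 and 3, the 3 ey>wge arrays or allele-pair replicate 2. The change on the log scale went from 0.64 with a pseudocount of 64 to 1.86 with 1. The call against ey-Gal4 was lost under 8 of 22 alternatives, among them both other pseudocounts and leaving out ey-Gal4 replicate 2 or 3 or any ey>wge array. Male germ line genes showed 1 of 18 tested higher in ey>wge against the control average, Tektin-C, whose ey>wge mean lay between those of the controls.

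The other family members showed no called change. eIF4EHP, a cap-binding repressor that does not bind eIF4G, had a mean signal of 570.0 ± 92.7 (SD, n = 3) in ey-Gal4 and 501 ± 47.1 in UAS-wge. It was 476 ± 108 in ey>wge and 488 ± 41.1 in the allele-pair discs, and the groups overlapped. eIF4E6 lay between 4.2 and 68.7 over the 12 arrays and above background on 5 of them, with no group above on all 3. eIF4E5 was above background on 2 arrays, and eIF4E4 and eIF4E7 on 1 each, with highest signals of 28.6, 37.2 and 28.6. Of the 5 family members that were low in control discs, eIF4E3 alone rose in these tests, and 3 of the 5 were not tested.

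**Figure D2:**
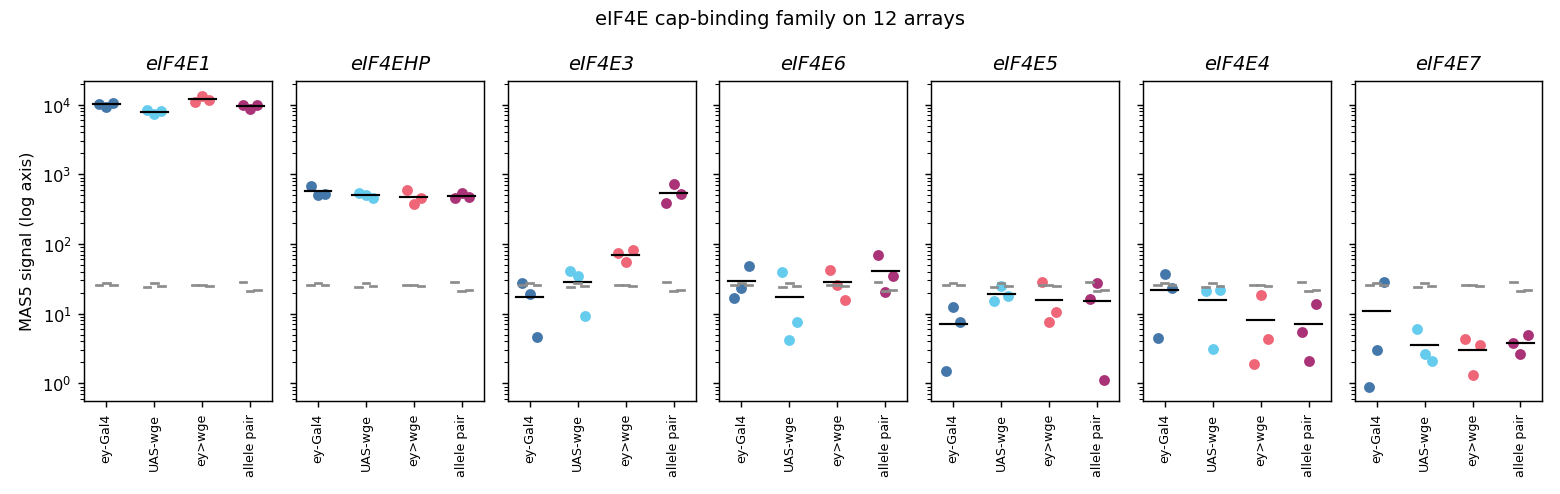
MAS5 signal (vertical axis, log scale) of the 7 eIF4E family genes on 12 arrays, by genotype. Points are arrays, black bars group means and grey ticks each array's 40th percentile. eIF4E1 and eIF4EHP lie above the ticks everywhere, eIF4E3 climbs above them in ey>wge and the allele pair, and the other 4 genes scatter around or below them.

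Among the partners of the cap-binding step, no gene passed against the control average. eIF4A changed by 0.06 ± 0.08, eIF4B, a cofactor of the helicase, by 0.19 ± 0.10, and the main scaffold gene eIF4G1 by 0.10 ± 0.15. eIF4G2, the second scaffold gene, gave 4073, 4246 and 4037 in ey-Gal4 and 4141, 4685 and 4265 in UAS-wge. It gave 3442, 3074 and 3472 in ey>wge, and 3397, 2674 and 1462 with the allele pair. The ey>wge arrays were below all control arrays, yet the change of -0.35 ± 0.18 did not pass in the fit of all 12 arrays (limma adjusted p = 0.462). It passed when the allele-pair arrays were not part of the fit (adjusted p = 0.0147). The spread of the allele-pair arrays, which enter the first fit and not the second, was 978 (SD) for this gene against 111 to 285 in the other groups. eIF4H2 was below background in all control arrays and above it on 2 of 3 arrays in ey>wge and in the allele pair, with a change of 0.85 ± 0.36 that did not pass (adjusted p = 0.337). It was tested only because of the arrays of those groups.

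No eIF2B or eIF3 gene was called in ey>wge against the control average, nor was eIF2beta. The other eIF2 subunit genes, eIF2alpha and eIF2gamma, were not measured here, so eIF2 as a complex cannot be judged. Of the 16 eIF3 genes, 13 were above background on every array, and 12 of those moved by less than 0.25. The exception was eIF3f1, a subunit of the scaffold that binds the small ribosomal subunit. Its signals were 4307, 5131 and 5023 in ey-Gal4, 5745, 5004 and 5394 in UAS-wge and 4074, 4064 and 4203 in ey>wge. The ey>wge arrays were the lowest of the series, and the change of -0.30 ± 0.09 did not pass in the fit of all arrays (limma adjusted p = 0.116), though it did in the 9 arrays alone (adjusted p = 0.0417) and without allele-pair replicate 1 (adjusted p = 0.0471). The second copies eIF3d2, eIF3f2 and eIF3g2 lay above background on 8, 5 and 10 of 12 arrays, with signals of 2.6 to 59.5, and did not pass in any comparison. All 5 eIF2B genes stayed between -0.07 and 0.15. The 5 genes of start codon selection and tRNA delivery (eIF1, eIF2A, eIF2beta, eIF2D and eIF5) lay between 0.06 and 0.19. The highest was eIF5, which triggers GTP hydrolysis by eIF2, at 0.19 ± 0.09. eIF6, which keeps free large subunits apart from small ones, gave 0.29 ± 0.12 (adjusted p = 0.338) and eIF5B 0.14 ± 0.12, and both missed the threshold.

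**Figure D3:**
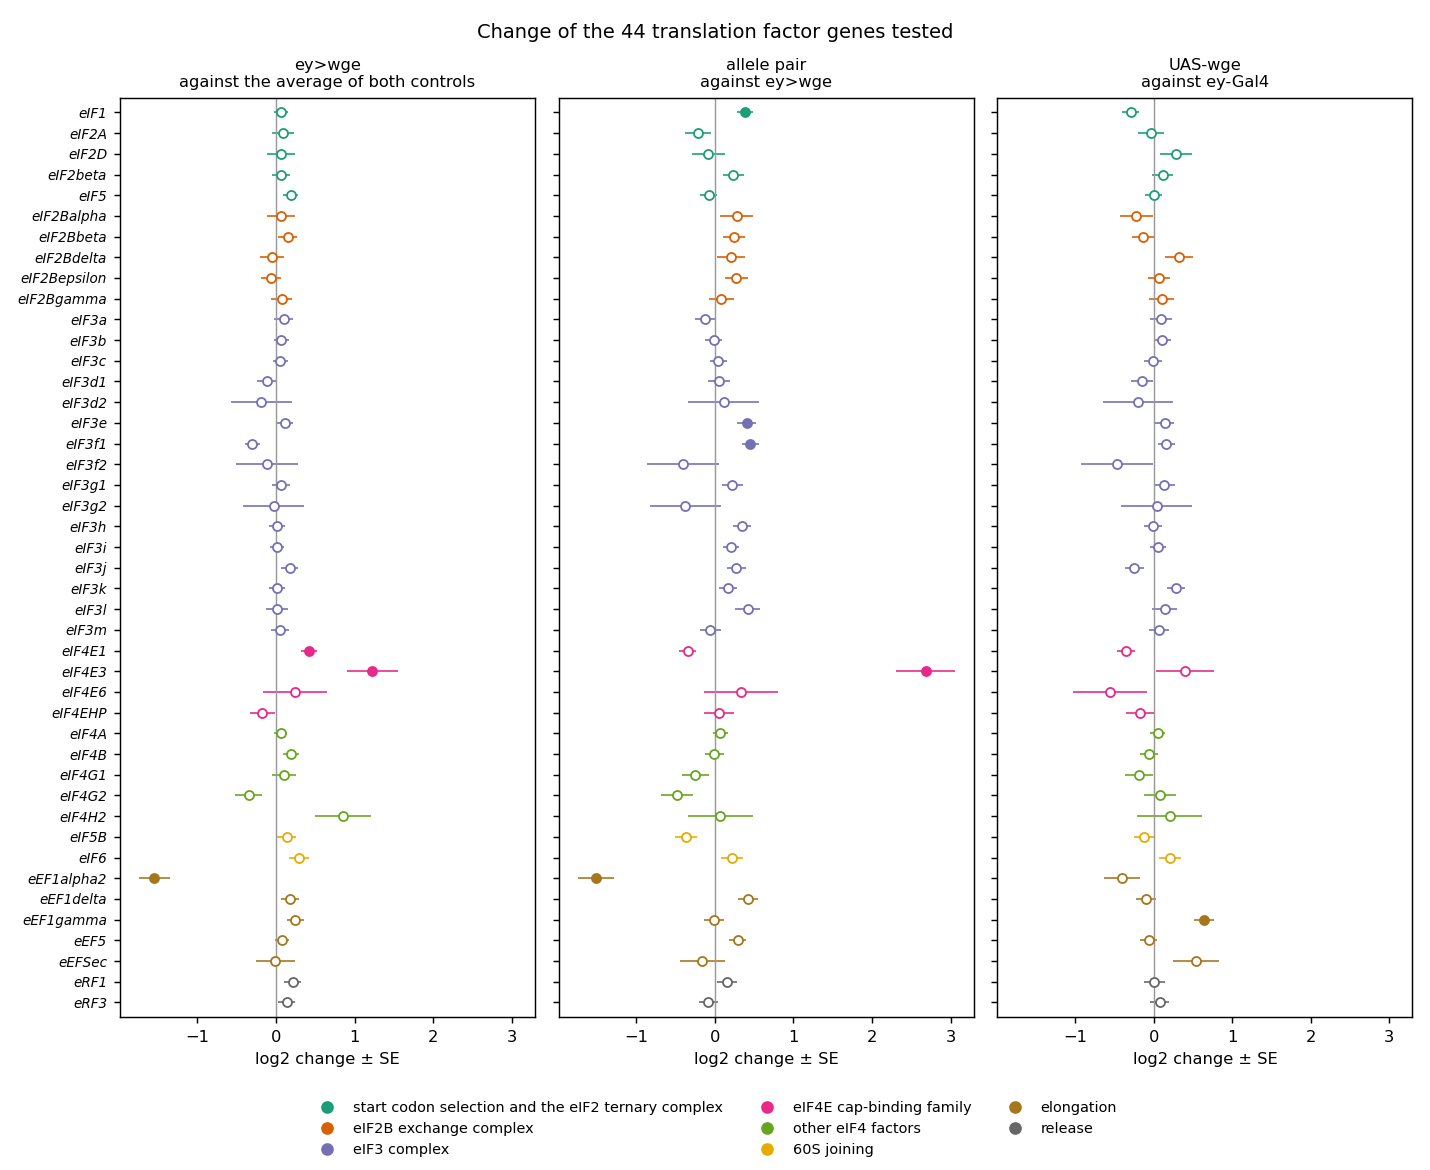
Change on the log2(signal + 16) scale with its SE (horizontal axis) of the 44 genes tested (vertical axis), coloured by role, in 3 comparisons. Filled points passed at an adjusted p under 0.05. Most genes lie near 0. eIF4E3 and eEF1alpha2 carry the largest called changes, followed by eEF1gamma (0.64), and those of eIF3f1, eIF4E1, eIF3e and eIF1 are smaller (0.38 to 0.45).

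Against each control alone, 3 members passed over ey-Gal4, 2 higher and 1 lower, where 3.63% of all probe sets were called (1.35% higher, 2.29% lower). Over UAS-wge 2 passed, 1 higher and 1 lower, where 3.70% of all were called (1.74% higher, 1.96% lower). These comparisons share the ey>wge arrays. eEF1gamma, the subunit that anchors the exchange complex, was higher than in ey-Gal4 by 0.57 ± 0.12 (limma adjusted p = 0.0116), and this call was lost without ey-Gal4 replicate 3, ey>wge replicate 2 or ey>wge replicate 3 (adjusted p of 0.0673, 0.0742 and 0.0684). The 3 members called over ey-Gal4 became 1 without any of the same 3 arrays, where 299, 326 and 299 of all probe sets were called, against 502.

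The parental lines were compared to see which factors differ between them before winged eye is driven. eEF1gamma alone passed among the 44, where 4.99% of all probe sets were called, 2.31% higher and 2.69% lower. Its signals were 15089, 15467 and 14502 in ey-Gal4 and 20876, 28267 and 21717 in UAS-wge. They were 19836, 24017 and 23143 in ey>wge, and 24109, 20206 and 22054 with the allele pair. The ey-Gal4 arrays lay below all 9 others, which overlapped one another. UAS-wge was higher by 0.64 ± 0.12 (limma adjusted p = 0.00337), a call kept under each alternative, while ey>wge and the allele pair differed from UAS-wge and from ey>wge by -0.07 and -0.01 with no call. Among members that did not pass, eEFSec gave 0.53 ± 0.29, eIF4E1 -0.35 ± 0.11 (adjusted p = 0.0905) and eIF1, which guards start codon choice, -0.29 ± 0.11.

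Discs that also carry the Su(var)3-9 alleles were compared with ey>wge discs to see how the factors differ between them. Of the 44 members, 4 were higher (eIF4E3, eIF3f1, eIF1 and eIF3e) and 1 lower (eEF1alpha2), where 6.80% of all probe sets were called, 2.23% higher and 4.57% lower. The median change of the 44 was 0.08, against -0.08 over all probe sets tested. limma gave 13 of the 44 and 3152 of the 13817 an unadjusted p under 0.05. Calls over all probe sets were 939, and ranged from 314 to 2927 with 1 array left out, so counts of members moved along with a table-wide range. The 5 members called became 14 (10 higher, 4 lower) without allele-pair replicate 1, 2 without replicate 2 and 3 without replicate 3. Without any 1 of the ey>wge arrays 2 were called, and without UAS-wge replicate 1 or 2 there were 3. The total over all probe sets in each of these fits is not given here, so these counts say nothing particular to the members.

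eIF4E3 had the largest rise, of 2.68 ± 0.37 on the log2 scale (limma adjusted p = 0.000332), from a mean of 69.9 ± 14.1 (SD, n = 3) to 546 ± 168. Mean signal was 7.81-fold higher than in ey>wge, and on the bounds described above at least 19.7-fold higher than in ey-Gal4 and at least 16.1-fold higher than in UAS-wge. The rise was 2.26, 3.12 and 2.67 in allele-pair replicates 1, 2 and 3, the first being the replicate without a span trend. With replicate 1 as the lone array of its group, assumed to vary like the other groups, the change had an adjusted p of 0.0590, and the call was lost in this 1 of 23 alternatives. Over all alternatives the change lay between 2.16 and 2.92.

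Male germ line markers gave no called rise beside that of eIF4E3 with the allele pair. Of 30 such genes with a probe set, 18 were tested, with a median change of -0.13 and a highest of 1.23 with the allele pair. None was called higher and 1 was called lower. That gene was Tektin-C, an axonemal protein gene, with a mean signal of 2079 in ey-Gal4 and 9.7 in UAS-wge, then 1039 in discs with driven wge and 3.7 in allele-pair discs. The summed signal of the 30 genes was 3644 to 4003 in ey-Gal4, 1801 to 1966 in UAS-wge, 2776 to 2980 in ey>wge and 1616 to 1886 with the allele pair. Tektin-C carried these differences: the sum of the other 29 genes was 1469 to 1986 in ey-Gal4, 1799 to 1959.8 in UAS-wge, 1782 to 1933 in ey>wge and 1614 to 1883 with the allele pair. With the allele pair 15 of the 30 were below background on all 3 arrays, against 11 in ey>wge. Of 9 female germ line genes tested, none was called. eIF4G2, the scaffold gene also used in the male germ line, changed by -0.49 ± 0.20 and did not pass (adjusted p = 0.155). Its 3 replicates lay 0.031, -0.31 and -1.18 from ey>wge, and with 1 array left out the change was between -0.74 and -0.14. It was called without allele-pair replicate 1 (adjusted p = 0.00368).

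Genes beside eIF4E3 on chromosome arm 3L gave no called rise with it. Of the 8 protein-coding genes on each side, 15 had a probe set of a single symbol and 13 were tested, and none was called with the allele pair. The nearest, CG13678 and CG7213, had mean signals of 27.3 and 9.0 in ey>wge and 19.1 and 5.1 with the allele pair. The largest change upward among them was that of CG7366, 7 places away, of 0.92 ± 0.44 (limma adjusted p = 0.219), from a mean signal of 5.7 to 24.2. In ey>wge against the control average tut, 5 places away and named for its testis phenotype, rose by 1.05 ± 0.19 (limma adjusted p = 0.00197), but its ey>wge mean of 605 was close to the 612 of ey-Gal4, with UAS-wge at 132. For eIF4E3 itself the parental lines differed by 0.40 with no call (limma adjusted p = 0.754). Its signals there lay at or near background, so a difference between the lines could hardly show.

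**Figure D4:**
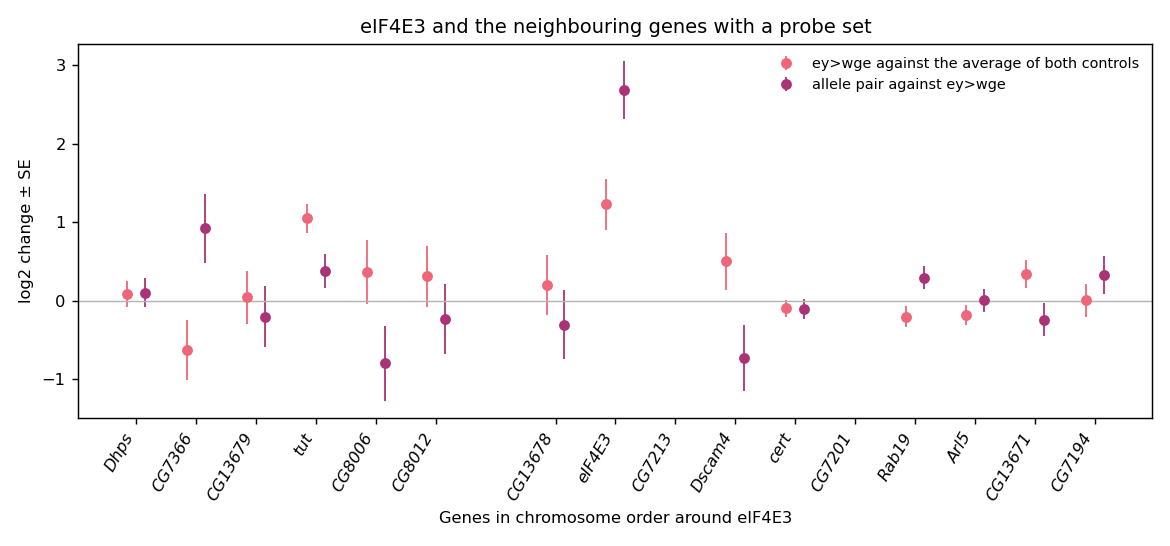
Change with its SE (vertical axis, log2 scale) of eIF4E3 and the neighbouring genes with a probe set, in chromosome order without distances (horizontal axis), for ey>wge against the control average and for the allele pair against ey>wge. eIF4E3 stands at 2.68 with the allele pair, and no tested neighbour was called in that comparison. Genes named without a point were not tested.

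The smaller rises with the allele pair were those of eIF3f1, eIF1 and eIF3e. eIF3f1 gave 5817, 5572 and 5485, above all ey>wge arrays, a change of 0.45 ± 0.11 (limma adjusted p = 0.0196). eIF1 gave 16636, 19357 and 19599 against 13804, 14841 and 13877 in ey>wge, a change of 0.38 ± 0.11 (adjusted p = 0.0361). eIF3e, another scaffold subunit, gave 8070, 8313 and 10595 against 7100, 6721 and 6432, a change of 0.40 ± 0.12 (adjusted p = 0.0431). In each case the groups did not overlap. All 3 calls were lost with quantile normalization, with the span trend removed, in the 6 arrays alone and without any 1 of the ey>wge arrays or allele-pair replicate 2, and those of eIF1 and eIF3e under further settings. The call of eIF3e was lost without any 1 of the 12 arrays except allele-pair replicate 1, and that of eIF1 also without UAS-wge replicates 1 and 2 and allele-pair replicate 3. With the span trend removed the changes were 0.29 for eIF3f1, 0.22 for eIF1 and 0.29 for eIF3e.

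Gene span moved with these values. Relative to ey>wge, signal and span had a Spearman correlation of -0.302 and -0.398 across 10752 probe sets in allele-pair replicates 2 and 3. It was -0.029 in replicate 1, and genes are not independent here. The control arrays gave 0.015 (UAS-wge replicate 3) to 0.158 (ey-Gal4 replicate 1). With the trend removed, ey>wge against the control average called 3 members and 449 of all probe sets, and eIF3f1 had a limma adjusted p of 0.0506. Translation factor genes are short, with a median span of 1955 bases among the 44 tested against 2864 over all, and 30 of the 44 lay under that overall median. Probe sets of genes under the overall median changed by a median of 0.07 and those over it by -0.23. Across the 44 members the Spearman correlation of change with span was -0.470. eIF1, eIF3f1 and eIF3e span 1310, 1301 and 1700 bases. At the long end, eIF5B (32320 bases) changed by -0.37 ± 0.14 and eIF4G2 (10953 bases) by -0.49, neither called. The longest member, eIF4EHP (45884 bases), changed by 0.05 and eIF4B (15603 bases) by -0.01 on the probe sets that stand for them. The weaker eIF4EHP probe set changed by -0.56 ± 0.27, in the direction of the trend. The other eIF4B probe sets changed by 0.03, 0.15 and, for the weakest, -0.37 ± 0.35. None of these was called. The short eIF3f2 (1104 bases) and eIF3g2 (979 bases) changed by -0.40 ± 0.46 and -0.37 ± 0.45. Their signals lay near background and the SEs exceed the changes, so these genes cannot be placed against the trend. The probe sets that stand for eIF4EHP and eIF4B lay off it, and so did other members. Among them, eIF3l (2652 bases) changed by 0.42, eEF1delta (1944 bases) by 0.42 and eRF1 (5519 bases) by 0.16. The change of eIF4E3, with 1345 bases, lay far outside this trend, as did that of eEF1alpha2, with 4839 bases. For the allele pair against ey>wge, the fit with the trend removed called 2 members, 1 higher and 1 lower. The share called over all probe sets in that fit is not given here.

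**Figure D5:**
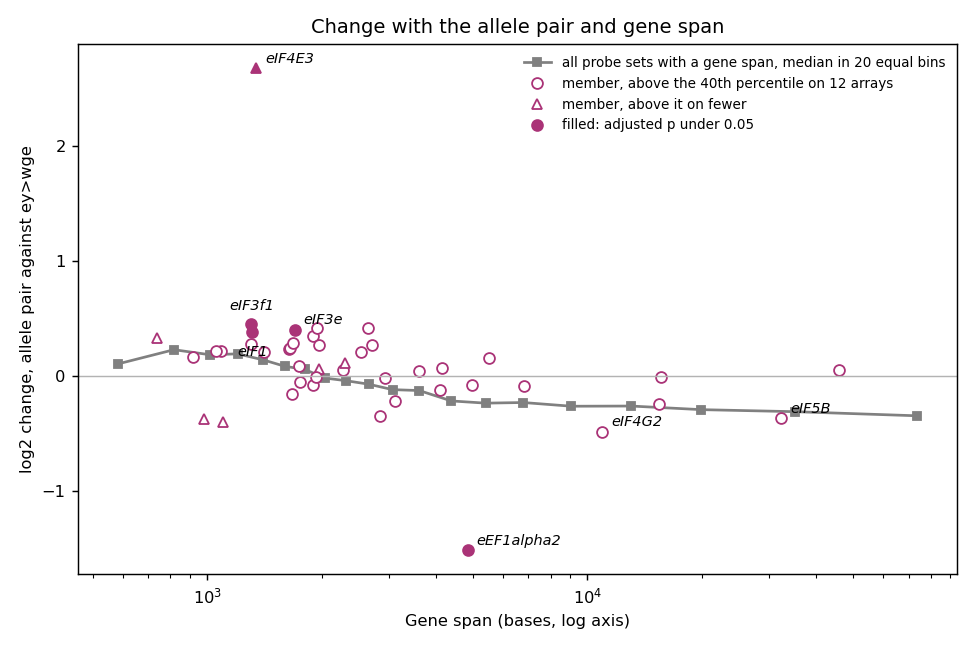
Change with the allele pair against ey>wge (vertical axis, log2 scale) by gene span (horizontal axis, bases on a log scale). The grey line gives medians over all probe sets with a span in 20 equal bins, circles members above background on all 12 arrays, triangles the other members tested, and filled symbols an adjusted p under 0.05. Many members lie near the downward line. eIF4E3 at 2.68 and eEF1alpha2 at -1.51 lie farthest from it. Others also lie off it, among them eIF3f1, eIF3e, eIF1, eIF4EHP, eIF4B, eIF3l, eEF1delta and eRF1. The points of eIF3f2 and eIF3g2, with signals near background, have SEs larger than their changes.

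As groups, the 13 eIF3 genes above background on all arrays changed by a median of 0.21 with the allele pair, from -0.12 (eIF3a) to 0.45, with 10 above 0, and 2 of them were called. The 5 eIF2B genes lay between 0.08 and 0.28 and none passed. The per-array medians of the 38 members above background were 0.05, 0.11 and 0.14 in replicates 1, 2 and 3, against -0.00, -0.10 and -0.13 over all probe sets tested. eEF1delta, which gave 13597, 16702 and 19399, changed by 0.42 ± 0.13 and missed the threshold (limma adjusted p = 0.0578).

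Genes that act on these factors were examined in lists chosen for their function. In ey>wge against the control average none passed among 15 genes of TOR and growth signalling, 17 mRNA and eIF4E partners, 9 genes of the stress response through eIF2, 8 modifiers of elongation factors, 18 cytosolic aminoacyl-tRNA synthetases and 8 mitochondrial factors. Their medians lay between -0.05 and 0.17. With the allele pair 1 rose and 6 fell in the first 4 lists and none passed in the last 2, where 2.23% of all probe sets were called higher and 4.57% lower. Falls were those of gig (-0.99 ± 0.18), which encodes the TOR inhibitor Tsc2, the ribosomal kinase gene S6k (-0.67 ± 0.14), the eIF2 kinase gene Gcn2 (-0.73 ± 0.16), Paip2 (-0.54 ± 0.16), an inhibitor of the poly(A)-binding protein, rin (-0.51 ± 0.13) and Nup358 (-0.63 ± 0.18). These 6 genes span 4697 to 13383 bases, above the overall median. REPTOR-BP, a transcription factor gene downstream of TOR with a span of 1105 bases, rose by 0.53 ± 0.15 but also differed between the parental lines (-0.69 ± 0.15). Between those lines LeuRS, the leucyl-tRNA synthetase gene (0.67 ± 0.16), and the mitochondrial elongation factor gene mEFTs (1.06 ± 0.14) were higher in UAS-wge, with mean signals of 1492 against 922 and 2409.5 against 1146.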

How the data were processed

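RNA of 12 eye-antennal disc preparations (100 ng each, amplified in vitro per the labels' protocols) was hybridized to Affymetrix arrays. The deposited values are MAS5 signal intensities, 1 per probe set and array, on a linear scale. Per the submitters' processing notes the tool was MAS5, and its settings are not given in the sources used here. The 2% trimmed mean was about 500.01 on each array, so the values themselves show that arrays were scaled before they were deposited.

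Signals were analysed as log2(signal + 16) in R 4.3.3 with limma 3.58.1, with 1 mean per genotype, all 12 arrays and eBayes with a variance trend. The 183 Affymetrix control probe sets and those not above their array's 40th percentile on 3 arrays were left out. Gene names came from the platform annotation, and gene span and chromosome from RefSeq (Release 6 plus ISO1 MT). No coordinates are given, since the build of the probe sets is not named. Probe sequences were not used here, so cross-hybridization between near-identical genes (such as the eEF1alpha pair) cannot be judged, and the probe sets of eEF1alpha2, eIF4E1 and eEF1gamma have names ending in _s_at, used for probes shared by several transcripts. The number of arrays limits the precision.

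The genes and lists were chosen with earlier results of these data known. Genes were named if called in a comparison, if in the eIF4E family, if among the 3 largest changes either way, if among the 5 highest or lowest in mean signal, if among the 5 lowest or 3 highest in spread, and, from the lists, if called (at most 4 a list). The neighbours of eIF4E3 were looked up after its values were seen. The fit was tested on simulated data. Alternatives were other normalizations, pseudocounts, filters, samples in the fit, the replicate number as a block, the mean over probe sets, a span correction (limited to the 10752 probe sets with a span) and leaving out arrays. Fits without allele-pair replicates 2 and 3 were added after the data were seen.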

Additional observations from a re-analysis of the deposited data

How the results depend on the processing

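Replicate numbers did not pair the arrays: deviations of same-numbered arrays from their group means correlated between -0.0485 and 0.0833, and 0 of 18 pairs exceeded 0.1. With the replicate block the members called were 3, 3, 2, 5 and 1 for ey>wge against the control average, against ey-Gal4, against UAS-wge, the allele pair against ey>wge, and UAS-wge against ey-Gal4, as without it. Leaving out 1 array gave 1 to 4, 1 to 4, 2 to 3, 2 to 14 and 1 to 2 members in the same order, while calls over all probe sets ranged over 250 to 625, 299 to 785, 329 to 754, 314 to 2927 and 457 to 966. Fits of only the groups compared called 4 members (of 722 probe sets called in all, against 410) in the first comparison, 4 against ey-Gal4 (845 against 502), 4 against UAS-wge (842 against 511), 2 with the allele pair (252 against 939) and 2 between the parental lines (958 probe sets). With the allele pair 3 members were called under quantile normalization, 3 with centred medians, 3 with no filter, 8 with the 60th percentile filter and 2 with the span trend removed. The span correction gave 3 between the parental lines. Calls over all probe sets under these settings are not given here, so these counts say nothing particular to the members. Of 705 recomputed changes of named members, 703 kept their direction. The exceptions, neither of them called, were eIF3f2 against ey-Gal4, from -0.69 to 0.045 over arrays left out, and eIF4G2 with the allele pair, 0.031 without replicates 2 and 3. The causes were not tested. Signals near the 40th percentile limit what can be said of eIF4E3 in controls, eIF4E4 to eIF4E7, eIF4H2 and the second eIF3 copies.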

Other observations

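Members with several probe sets gave no call on any of them. eIF4B has 4 and eIF4EHP has 2. In eIF4B the 3 probe sets with mean signals of 2182, 5041 and 5370 changed by 0.19, 0.07 and 0.19 in ey>wge against the control average, and the other, with a mean signal of 27.0, by 0.37. The weaker eIF4EHP probe set, with a mean signal of 113, differed by -0.68 ± 0.27 between the parental lines and the stronger one by -0.17 ± 0.18, neither called by limma.

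The genes around eEF1alpha2 on chromosome arm 3R gave no called fall with it. Of the 13 neighbours with a probe set among 8 protein-coding genes on each side, 12 were tested and none was called by limma in ey>wge against the control average or with the allele pair. The adjacent genes CG11563 and Tbca, the latter for a tubulin-folding cofactor, had changes of 0.40 ± 0.13 and 0.40 ± 0.15 in ey>wge (adjusted p = 0.135 and 0.241), opposite in sign to eEF1alpha2. The next but one, CstF50, an mRNA cleavage factor gene, gave 0.09 ± 0.13. Zmynd8, 6 places away, changed in the same direction as eEF1alpha2, by -0.47 ± 0.15 in ey>wge (adjusted p = 0.144) and by -0.33 ± 0.18 between ey>wge and allele-pair discs (adjusted p = 0.285). Smvt, 8 places away, gave -0.55 ± 0.40 and 0.47 ± 0.46 in the same comparisons.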
